A study of Mus musculus with 15 samples.

Results

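The Frizzled family comprises 10 genes in the mouse, Fzd1 to Fzd10, and all 10 were found by gene identifier among the 24134 genes counted in each table. Their transcripts were followed in 15 RNA-seq libraries of articular chondrocytes from ICR mice. The cells were isolated by collagenase from femoral condyles and tibial plateaus of pups in the first postnatal week and used at passage 0. Each of 5 conditions had 3 biological replicates, numbered 1 to 3. In the siRNA set, cells received control siRNA (siCtrl) or siRNAs against both Tnks and Tnks2 (siTnks12) with METAFECTENE PRO, a transfection reagent. In the drug set, cells received DMSO, the solvent control, or 1 of the inhibitors XAV939 and IWR-1, each at 10 µM over 108 h. All cultures, controls included, were kept in DMEM with fetal bovine serum. The knockdown was transient and partial, and how many pups were pooled per culture is not given in the sources used here. Both drugs were compared with the same 3 DMSO libraries, so their changes are not independent of each other.

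Frizzled proteins are receptors that cross the membrane many times and bind Wnt ligands through a cysteine-rich extracellular domain. With the co-receptors LRP5 and LRP6 they recruit Dishevelled and stabilise beta-catenin, and with ROR2 or RYK they act on cell polarity and movement. Tankyrases, the enzymes encoded by Tnks and Tnks2, mark AXIN proteins for breakdown. XAV939 and IWR-1 are tankyrase inhibitors known for raising AXIN and lowering beta-catenin signalling. In cartilage, Wnt signals act on chondrocyte differentiation and on loss of the chondrocyte state.

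The family members share a short stretch inside the cell by which they bind Dishevelled, a lysine-threonine pair followed at a fixed distance by a tryptophan. It is shown because it is the part of these receptors that links every member, whatever its change here, to the same partner. Each coding sequence (GENCODE, GRCm38) held 1 in-frame match, and in 9 members the 30 bases around it read as follows, with the codons of lysine, threonine and tryptophan in capitals.
Fzd1: tccggcAAGACActgaattccTGGaggaag
Fzd2: tccggcAAGACActgcactcgTGGaggaag
Fzd7: tcgggcAAGACCctgcagtcaTGGcgtcgc
Fzd5: tccggcAAGACTctggagtctTGGcggcgg
Fzd4: tctgccAAAACTcttcacacgTGGcaaaag
Fzd9: agttccAAGACTtttcagactTGGcagagc
Fzd10: acttccAAGACCctgcagtccTGGcaacac
Fzd3: agcaaaAAGACAtgctttgaaTGGgccagt
Fzd6: agcaaaAAGACGtgcacagaaTGGgccggg
The stretch began 69 bases before the end of the coding sequence in Fzd1, Fzd2 and Fzd7, 117 bases before it in Fzd4 and 180 bases before it in Fzd9. In Fzd3 and Fzd6 it lay 495 and 636 bases before the end. The coding sequence of Fzd3 and Fzd6 was split over 6 exons and that of Fzd4 over 2, whereas the other 7 members had a single coding exon. The longest run of identical bases between any 2 members was 47, in the coding sequences of Fzd1 with Fzd2 and of Fzd1 with Fzd7, and it was 38 between Fzd2 and Fzd7. Reads confined to such runs could not be assigned to 1 member. Annotated non-coding genes or pseudogenes overlap Fzd3, Fzd5 and Fzd6, and the strand setting of the counting is not given in the sources used here.

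The libraries held 26857070 to 36615194 counts. The targeted genes checked the siRNA labels: Tnks stood at 69.0, 58.4 and 70.1 CPM (counts scaled to TMM-adjusted library totals) in siCtrl and at 19.5, 12.7 and 24.02 CPM in siTnks12. Tnks2 stood at 118, 120 and 115 CPM against 58.2, 44.9 and 61.2 CPM. All 8 chondrocyte markers were present in every library, with summed levels from 24446.9 to 188233 CPM. The 8 endothelial markers summed to at most 10.1 CPM and the 8 leukocyte markers to at most 40.5 CPM. DMSO replicate 3 stood apart from the other DMSO libraries in several transcripts, with Tnks at 64.1 CPM against 26.2 and 20.0 CPM.

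In both sets 9 members passed the filter on low counts and were tested. The remaining one, Fzd10, was close to absent, with 0 to 12 counts in each library. On the CPM per kilobase of exon (RPKM), the scale on which genes can be compared with each other, Fzd9 was the highest member in siCtrl, at 36.9 ± 1.51 RPKM (SD, n = 3). It was followed by Fzd2 at 21.2 ± 2.57, Fzd7 at 13.8 ± 1.19, Fzd8 at 13.7 ± 2.62 and Fzd1 at 12.0 ± 0.781 RPKM. The libraries of Fzd8 overlapped those of both Fzd7 and Fzd1, whereas all Fzd7 libraries lay above all Fzd1 libraries. Fzd5 and Fzd6 followed at 4.99 ± 0.213 and 4.65 ± 0.283 RPKM, also overlapping, then Fzd4 at 1.05 ± 0.188, Fzd3 at 0.410 ± 0.0676 and Fzd10 at 0.0728 ± 0.0148 RPKM.

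The order was different in DMSO. Fzd1 led there at 29.2 ± 2.47 RPKM (SD, n = 3), ahead of Fzd2 at 16.7 ± 2.33 and Fzd7 at 12.2 ± 1.33 RPKM, with no overlap between these neighbours. Fzd8 at 4.68 ± 0.321 and Fzd9 at 4.19 ± 2.06 RPKM overlapped, as did Fzd6 at 2.49 ± 0.208 with Fzd5 at 2.35 ± 0.548, and Fzd4 at 0.643 ± 0.395 with Fzd3 at 0.637 ± 0.0904 RPKM. Fzd10 stood at 0.0594 ± 0.0243 RPKM. The siCtrl and DMSO cultures differ in transfection, agent and possibly time in culture, which cannot be told apart, and the difference between these controls was not tested.

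**Figure D1:**
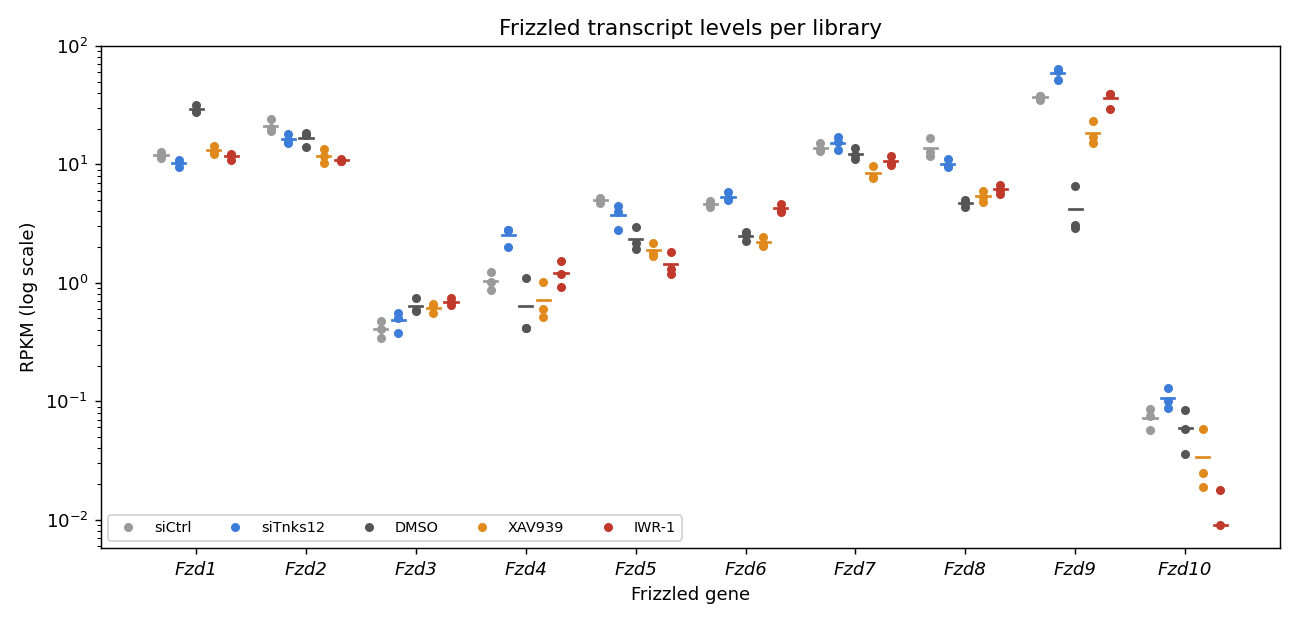
RPKM of each Frizzled gene (log axis) in the 15 libraries, coloured by condition; points are libraries and bars the mean of 3 replicates. Fzd9 spans the widest range among the 9 tested members, from 2.91 RPKM in a DMSO library to 64.2 RPKM in a siTnks12 library, and 1 IWR-1 library with no Fzd10 counts is not drawn.

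In the 3 inhibited conditions Fzd9 was the highest member: 59.2 ± 6.61 RPKM in siTnks12, 18.6 ± 4.24 in XAV939 and 36.0 ± 5.55 in IWR-1 (SD, n = 3). Its libraries did not overlap with those of the next member in any of them. On CPM, with no correction for length, this held in siTnks12 and IWR-1. In XAV939 the mean of Fzd1 was then higher, at 55.0 CPM against 42.6 CPM. The next member was Fzd2 in siTnks12, at 16.4 ± 1.54 RPKM. In XAV939 and IWR-1 it was Fzd1, at 13.1 ± 0.990 and 11.7 ± 0.692 RPKM, and its libraries overlapped those of Fzd2.

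As a share of the summed RPKM of the family, Fzd9 made up 5.73 ± 2.84% in DMSO, 29.4 ± 4.44% in XAV939 and 43.3 ± 4.94% in IWR-1 (SD, n = 3). The highest DMSO library, replicate 2, reached 9.003%, below the lowest XAV939 library at 25.2%. Fzd1 went the other way, from 39.9 ± 2.52% in DMSO to 21.003 ± 2.39% in XAV939 and 14.1 ± 1.18% in IWR-1. In the siRNA set Fzd9 made up 34.0 ± 0.277% in siCtrl and 47.9 ± 3.63% in siTnks12, and Fzd1 11.01 ± 0.800% and 8.35 ± 0.819%. The summed level itself moved less: 73.2 ± 1.89 RPKM in DMSO, 62.7 ± 5.20 in XAV939 and 83.0 ± 3.69 in IWR-1, and 109 ± 4.41 in siCtrl against 123 ± 6.46 in siTnks12. These are bulk libraries, in which fewer cells of a type and less RNA per cell cannot be told apart.

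**Figure D2:**
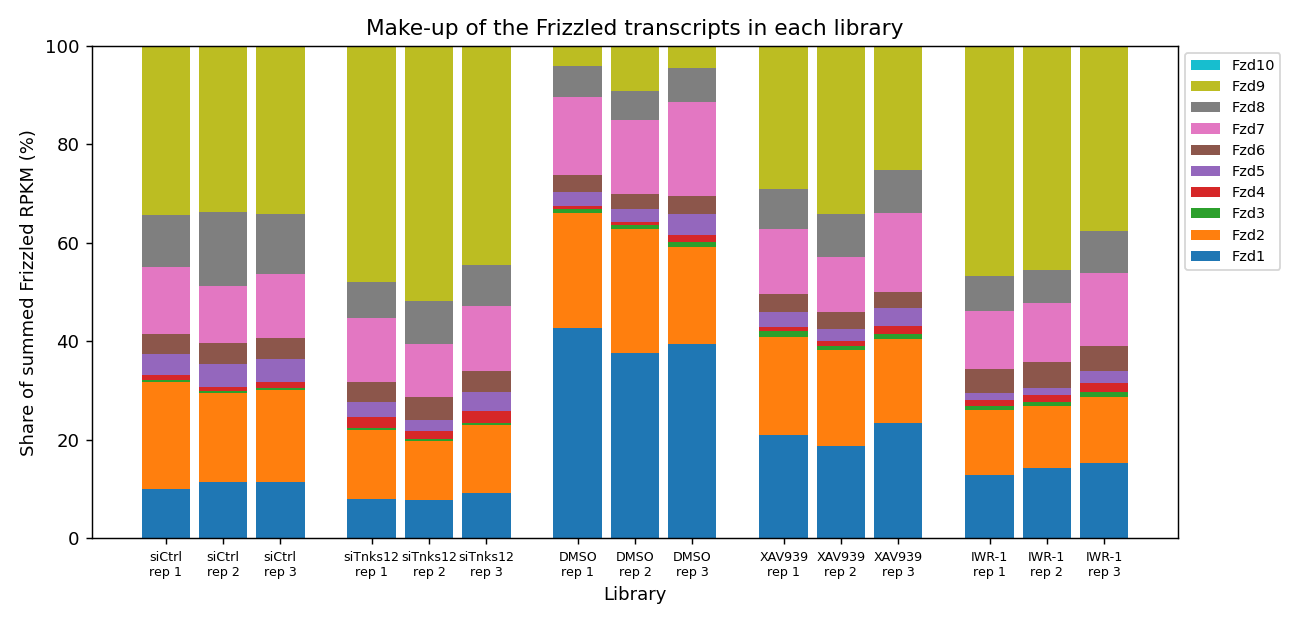
Share of the summed Frizzled RPKM (percent, vertical axis) held by each member in each library (horizontal axis), stacked from Fzd1 at the bottom. Fzd9 takes 3.88 to 9.003% in the DMSO libraries and at least 25.2% in every other library.

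To ask which receptors changed when tankyrase was reduced, each condition was compared with its control by edgeR's quasi-likelihood test, with p-values adjusted over all genes tested. After the knockdown, in the fit without the replicate number as a block, 2 of 9 members were higher and 0 were lower. Beside them stood 18% of all genes called (10.4% higher and 7.61% lower). The share over all genes fell to 4.4%, 6.72% and 4.91% without siCtrl replicates 1, 2 and 3 and to 5.78% without siTnks12 replicate 1. Fzd1, Fzd2, Fzd5 and Fzd8 were lower at an unadjusted p under 0.05 in the same test. The share of all genes at that looser limit was not counted and cannot be below 18%. No trait of the family can therefore be read from these members. DESeq2 called 4 members at an adjusted p under 0.05, beside 22.6% of all genes, and of these Fzd2 and Fzd8 were lower. With the replicate number as a block 5 members were called, beside 34.6% of all genes, with Fzd2 and Fzd8 again lower. With XAV939, 1 member was higher and 3 were lower, beside 17.4% of all genes (7.57% higher and 9.85% lower). With IWR-1, 3 were higher and 3 lower, beside 36.4% of all genes (16.2% higher and 20.2% lower). With the block Fzd5 was also lower with XAV939 and Fzd4 also higher with IWR-1, beside 33.4% and 47.5% of all genes. The median log2 fold change of the tested members was 0.14, -0.18 and 0.12 in these comparisons, beside medians over all genes of 0.00, 0.02 and 0.01. Without the block Fzd9 was the one member called in each of the 3, and with it Fzd2, lower each time, was another. The libraries of treated and control cells did not overlap in 7 members after the knockdown, 4 with XAV939 and 6 with IWR-1, beside 43.8%, 33.2% and 51.1% of all genes. The study set stricter limits, with changes over 3-fold and adjusted p-values below 1e-05. At these limits edgeR called 0 members in each comparison here, and DESeq2 called 1 with XAV939 and 1 with IWR-1, in both cases Fzd9, which was higher. In edgeR those limits passed 0% of all genes after the knockdown, 0.00721% with XAV939 and 1.05% with IWR-1, and in DESeq2 0.585%, 1.31% and 4.1%.

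**Figure D3:**
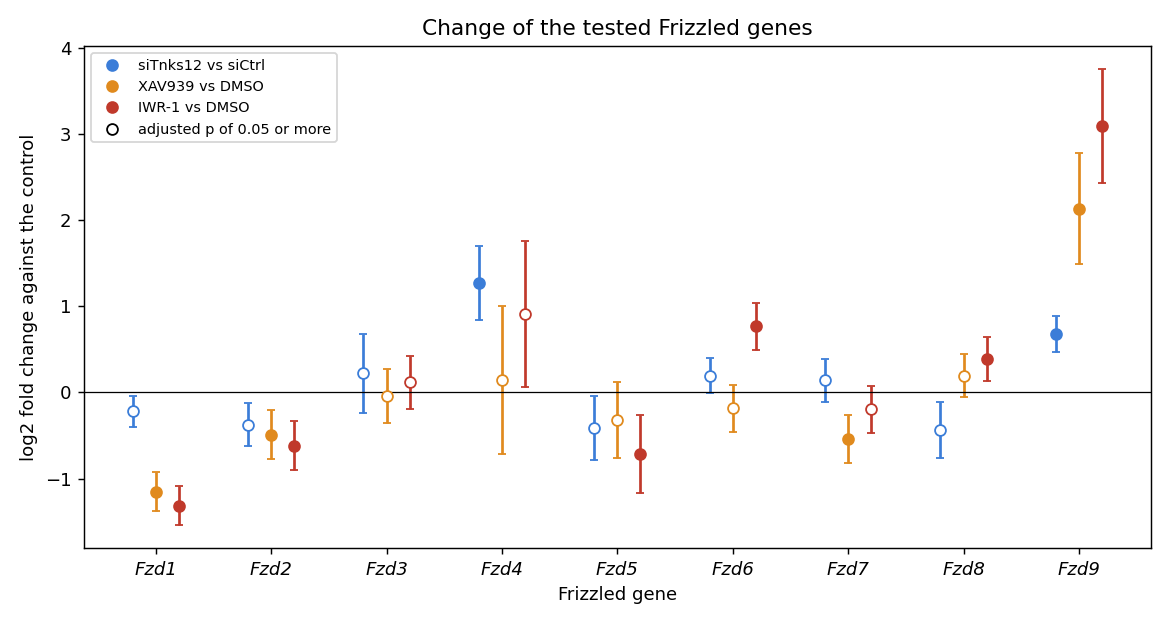
Log2 fold change of the 9 tested Frizzled genes against siCtrl or DMSO (vertical axis), with bars for the 95% confidence interval; filled points passed an adjusted p of 0.05. Fzd9 lies above 0 in each comparison, Fzd1 falls by 1.16 and 1.32 with the drugs, and the intervals of Fzd4 in the drug set are the widest.

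Fzd9, a receptor of the Fzd4, Fzd9 and Fzd10 subgroup required for normal bone formation in mice, lies on the minus strand of chromosome 5 (chr5:135248938-135251230, GRCm38) as a single exon. The study placed it among its SOX9 targets and its cartilage-signature genes. In the drug set it was at 6.68, 15.05 and 7.07 CPM in DMSO replicates 1 to 3, at 39.2, 53.5 and 35.0 CPM under XAV939, and at 90.5, 89.4 and 68.0 CPM under IWR-1. The 3 groups did not overlap, and in each group except IWR-1 the highest library was replicate 2. Fzd9 rose 4.40-fold with XAV939 (log2 fold change 2.14, SE 0.29, adjusted p = 0.000885) and 8.55-fold with IWR-1 (3.10, SE 0.30, adjusted p = 2.73e-05). Without DMSO replicate 2 these log2 fold changes were 2.62 and 3.57. In the siRNA set it was at 87.3, 86.0 and 80.8 CPM in siCtrl and at 142, 147 and 119 CPM in siTnks12, with all siTnks12 libraries above all siCtrl libraries. The rise was 1.60-fold (0.68, SE 0.09, adjusted p = 0.00691).

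The summed level of the chondrocyte markers moved with Fzd9, and most of that sum was Col2a1, which ranged from 20881.3 to 142760 CPM. Their summed level was 24446.9 to 33219 CPM in DMSO, 33695.3 to 49961.5 CPM with XAV939 and 82319.5 to 105330 CPM with IWR-1, and 77666.6 to 106452 CPM in siCtrl against 111996 to 188233 CPM in siTnks12. Of the 8 markers, 3 were higher in siTnks12, 4 with XAV939 and 8 with IWR-1, and none was lower. Over all genes 18%, 17.4% and 36.4% were called. Col2a1 did not pass after the knockdown (adjusted p = 0.14) or with XAV939 (0.118), and neither did Sox9 (0.68 and 0.0677). Acan, which encodes aggrecan, rose by 0.96, 1.21 and 2.95 on the log2 scale, the largest rise of the 8 in the first and second comparison. The 8 fibroblast markers summed to 12166.9 to 15275.4 CPM in DMSO, 6321.37 to 8295.3 CPM with XAV939 and 5865.1 to 8815.06 CPM with IWR-1. Of these, 4 were lower with XAV939, 5 with IWR-1 and 1 after the knockdown, and none was higher. Osteoblast markers summed to 6298.37 to 10488.8 CPM in DMSO, 9931.16 to 10362.5 CPM with XAV939 and 3108.41 to 3507.78 CPM with IWR-1. Most of that sum was Spp1, at 1511.83 to 10383.5 CPM over the libraries of both sets. Of 7 tested in the drug set, 2 were higher with XAV939, and 3 were higher and 1 lower with IWR-1. Of 8 tested in the siRNA set, 1 was higher. At far lower levels, 3 of 4 tested leukocyte markers and 2 of 2 tested endothelial markers were lower with IWR-1, and 1 of 2 skeletal muscle markers was higher. After the knockdown 1 of 2 tested leukocyte markers was lower. Cd3e, which marks T cells, and Tie1, which marks endothelial cells, were each at 0 in 14 of the 15 libraries. The part of these shifts in the Frizzled changes was not tested.

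Fzd4 binds Wnts and also Norrin, the latter together with LRP5 and TSPAN12, and it is best known from retinal vessels. Its level was 6.87, 5.84 and 8.36 CPM in siCtrl and 18.9, 13.5 and 18.8 CPM in siTnks12. Every siTnks12 library was above every siCtrl library. Fzd4 rose 2.41-fold after the knockdown (log2 fold change 1.27, SE 0.18, adjusted p = 0.00841). The siTnks12 library with the lowest Fzd4, replicate 2, was the one with the most endothelial marker counts, 10.1 CPM summed against 1.04 and 1.57 CPM in the other siTnks12 libraries. Any part of endothelial cells in the Fzd4 level was not tested.

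In the drug set Fzd4 was at 2.77, 2.79 and 7.39 CPM in DMSO, 3.48, 4.02 and 6.82 CPM under XAV939, and 6.25, 7.99 and 10.2 CPM under IWR-1. Replicate 3 was the highest library of each group, and DMSO replicate 3 lay inside the range of IWR-1. The log2 fold change was 0.15 (95% confidence interval -0.71 to 1.001) with XAV939 and 0.91 (0.07 to 1.76, adjusted p = 0.0876) with IWR-1. With the replicate number as a block, the change with IWR-1 was 1.001 and passed the test (adjusted p = 0.000568, beside 47.5% of all genes called in that fit). It also passed without DMSO replicate 3, at 1.53 (adjusted p = 0.00318), and in DESeq2, at 0.91 (adjusted p = 0.0471). In 8 of 9 fits without a single library it did not pass, with adjusted p up to 0.26. The smallest value was 0.68, without DMSO replicate 1. For XAV939, leaving out single libraries gave values from -0.22 to 0.75, none of which passed.

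Fzd10, the remaining member of this subgroup and on the study's list of genes raised in osteoarthritis, did not pass the filter on low counts. It had 9, 4 and 6 counts in DMSO, 3, 5 and 2 with XAV939, 1, 0 and 2 with IWR-1, 9, 5 and 8 in siCtrl and 12, 8 and 10 in siTnks12. The IWR-1 libraries lay below all DMSO libraries, and a count of 0 allows for up to 3 counts, counting error only. With no filter edgeR called Fzd10 lower with IWR-1 (adjusted p = 0.0272), whereas DESeq2 gave an adjusted p of 0.0623. The difference between IWR-1 and the knockdown passed with no filter (adjusted p = 0.0186) and in DESeq2 (0.0343). In 13 fits without a single library Fzd10 passed the filter, but not without siTnks12 replicate 1 or 3, its highest libraries. The calls in those fits rest on that filter and on largely the same libraries, so they add no support. At these counts the fitted fold depends on the prior count and is not given.

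Fzd1, Fzd2 and Fzd7 are close relatives that bind overlapping sets of Wnts and can act through beta-catenin. Fzd1 (chr5:4753839-4758035, minus strand, a single exon) had the smallest adjusted p of the family with either drug. It was at 134, 115 and 118 CPM in DMSO, 51.6, 53.8 and 59.7 CPM under XAV939, and 45.8, 51.2 and 50.5 CPM under IWR-1. All 6 drug-treated libraries were at most 59.7 CPM, and all DMSO libraries at least 115 CPM. Fzd1 was 2.23-fold lower with XAV939 (log2 fold change -1.16, SE 0.10, adjusted p = 8.33e-05) and 2.49-fold lower with IWR-1 (-1.32, SE 0.10, adjusted p = 7.84e-06). In siTnks12 it was at 43.7, 40.2 and 45.4 CPM against 47.1, 53.6 and 49.9 CPM in siCtrl. These groups did not overlap, and the change of -0.22 (SE 0.07) did not pass the test (adjusted p = 0.0843).

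Fzd2, a receptor of WNT5A mutated in a skeletal dysplasia with short limbs, was at 64.7, 67.1 and 51.3 CPM in DMSO, 43.3, 49.4 and 37.7 CPM under XAV939, and 41.0, 39.4 and 39.0 CPM under IWR-1. DMSO replicate 3 was close to the highest XAV939 library, but the groups did not overlap. Fzd2 was lower with IWR-1 (log2 fold change -0.62, SE 0.13, adjusted p = 0.00338) and with XAV939 (-0.49, SE 0.13, adjusted p = 0.0248). The call with XAV939 was lost without DMSO replicate 1 (adjusted p = 0.0974), XAV939 replicate 1 (0.0713), DMSO replicate 2 (0.0701) or XAV939 replicate 3 (0.0576), and in a fit of only these 2 groups (0.0623). After the knockdown Fzd2 was at 66.1, 55.2 and 58.3 CPM against 88.3, 73.9 and 70.7 CPM in siCtrl. The change was -0.37 (SE 0.11), with an adjusted p of 0.0524. It passed with the replicate block (adjusted p = 0.00624) and in DESeq2 (0.0195).

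Fzd7, a receptor of many stem cell compartments, was at 54.4, 49.9 and 61.8 CPM in DMSO, 35.4, 34.8 and 43.7 CPM under XAV939, and 45.1, 46.4 and 53.5 CPM under IWR-1. The XAV939 libraries lay below all DMSO libraries, whereas the IWR-1 libraries overlapped them. Fzd7 fell by 0.54 on the log2 scale with XAV939 (SE 0.13, adjusted p = 0.014), a call lost without XAV939 replicate 1 (-0.49, adjusted p = 0.0573). Its change was -0.20 with IWR-1 (95% confidence interval -0.47 to 0.08) and 0.14 after the knockdown (-0.11 to 0.39). In siTnks12 it was at 76.9, 60.4 and 70.0 CPM against 68.7, 58.4 and 61.0 CPM in siCtrl.

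Fzd5 and Fzd8 form another pair of close relatives, known from eye and early embryonic development. Fzd5 was at 15.1, 13.2 and 20.5 CPM in DMSO, 12.4, 11.6 and 15.03 CPM under XAV939, and 8.95, 8.15 and 12.6 CPM under IWR-1. Replicate 3 was again the highest in each group, and the IWR-1 libraries lay just below the lowest DMSO library. Fzd5 was lower with IWR-1 (log2 fold change -0.71, SE 0.20, adjusted p = 0.0186). That call was lost without IWR-1 replicate 1 (adjusted p = 0.0708), IWR-1 replicate 2 (0.0818) or DMSO replicate 3 (0.0585). With XAV939 the change was -0.32 (95% confidence interval -0.77 to 0.13), and it passed with the replicate block at -0.31 (adjusted p = 0.0344, beside 33.4% of all genes). After the knockdown Fzd5 was at 27.5, 19.4 and 30.7 CPM against 32.9, 35.8 and 34.8 CPM, a change of -0.41 (SE 0.16, adjusted p = 0.112).

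Fzd8 was at 28.3, 25.9 and 29.7 CPM in DMSO, 28.6, 35.7 and 31.8 CPM under XAV939, and 36.4, 33.9 and 39.7 CPM under IWR-1. Every IWR-1 library was above every DMSO library, and XAV939 overlapped both. Fzd8 was 1.31-fold higher with IWR-1 (log2 fold change 0.39, SE 0.11, adjusted p = 0.0207), a call lost without DMSO replicate 1 (adjusted p = 0.06), IWR-1 replicate 1 (0.0669), DMSO replicate 2 (0.0716) or IWR-1 replicate 3 (0.102). With XAV939 the change was 0.20 (95% confidence interval -0.06 to 0.45). After the knockdown it was at 56.7, 65.7 and 58.4 CPM against 69.9, 99.4 and 76.0 CPM in siCtrl, with siCtrl replicate 2 far above the rest. The change was -0.44 (SE 0.14, adjusted p = 0.0657). It passed with the replicate block at -0.43 (adjusted p = 0.00892), in DESeq2 at -0.44 (0.0231) and without siTnks12 replicate 2 at -0.50 (0.0466). In 5 of 6 fits without a single library it did not pass, with adjusted p up to 0.175. The smallest change, -0.27, came without siCtrl replicate 2.

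Fzd3 and Fzd6 act mainly in planar cell polarity, the alignment of cells within a sheet. Fzd6 was at 12.2, 10.9 and 12.9 CPM in DMSO, 10.1, 11.7 and 9.81 CPM under XAV939, and 19.5, 22.5 and 19.3 CPM under IWR-1. All IWR-1 libraries were above all others of the drug set. Fzd6 was 1.70-fold higher with IWR-1 (log2 fold change 0.77, SE 0.12, adjusted p = 0.000644), whereas with XAV939 the change was -0.18 (95% confidence interval -0.46 to 0.09). After the knockdown it was at 25.1, 27.9 and 23.9 CPM against 22.4, 23.7 and 21.0005 CPM, a change of 0.20 (SE 0.09, adjusted p = 0.155) that passed with the replicate block (0.19, adjusted p = 0.046). In that fit 5 members were called after the knockdown, beside 34.6% of all genes, and DESeq2 called 4, beside 22.6%.

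Fzd3 stayed between 4.40 and 9.50 CPM over the 15 libraries and overlapped in all comparisons. Its log2 fold change was 0.22 (95% confidence interval -0.24 to 0.68) after the knockdown, -0.04 (-0.36 to 0.27) with XAV939 and 0.12 (-0.19 to 0.43) with IWR-1. These intervals bound its change without showing that there was none.

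XAV939 and IWR-1 were given at the same dose and time, so they were compared directly. Of the 9 members, 2 were higher with IWR-1 than with XAV939 and 0 lower, beside 17.6% of all genes called in this comparison (7.37% higher and 10.2% lower). None was lower at an unadjusted p under 0.05 in edgeR or at an adjusted p under 0.05 in DESeq2. Libraries did not overlap between the drugs for 4 members, beside 37.6% of all genes. At the limits of the study DESeq2 called none of the members between the drugs, beside 1.11% of all genes. Fzd6 was 1.93-fold higher (log2 fold change 0.95, SE 0.12, adjusted p = 0.000692). Within replicates 1, 2 and 3 its differences were 0.95, 0.94 and 0.97. Fzd9 was 1.94-fold higher (0.96, SE 0.28, adjusted p = 0.0365). That call was lost without XAV939 replicate 1 (adjusted p = 0.108), IWR-1 replicate 1 (0.104), IWR-1 replicate 2 (0.118) or XAV939 replicate 3 (0.102).

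With the replicate block 5 members differed between the drugs, beside 30.7% of all genes. Fzd4 was higher with IWR-1 in that fit (log2 fold change 0.80, adjusted p = 0.0047), Fzd7 was higher (0.35, adjusted p = 0.00752) and Fzd5 lower (-0.41, adjusted p = 0.0108). Fzd7 also passed without a block when XAV939 replicate 3 was left out (0.47, adjusted p = 0.0432). It did not pass in 8 of 9 such fits, with values down to 0.27 and adjusted p up to 0.254. For Fzd1 and Fzd2, the 2 members lowered by both drugs, the differences between the drugs were -0.16 (95% confidence interval -0.39 to 0.06) and -0.13 (-0.41 to 0.16).

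A difference between a drug effect and the knockdown effect was tested as an interaction over all 15 libraries. Fzd1 fell further with XAV939 than with siTnks12 by 0.95 (SE 0.13, adjusted p = 0.000421), and Fzd9 rose further by 1.44 (SE 0.34, adjusted p = 0.0132). With IWR-1 these differences from the knockdown were -1.11 for Fzd1 (SE 0.13, adjusted p = 3.69e-05) and 2.40 for Fzd9 (SE 0.34, adjusted p = 0.000186). In all, 4 members differed for each drug, beside 13.5% of all genes for XAV939 and 24.4% for IWR-1. The replicate block added Fzd4 for XAV939 (-1.09, adjusted p = 0.00432, beside 28.2% of all genes) and Fzd7 for IWR-1 (-0.34, adjusted p = 0.0155, beside 36.3%). At the limits of the study 0.00701% and 0.399% of all genes differed in edgeR and 0.798% and 2.49% in DESeq2, which called Fzd9 for IWR-1 there. Since the baseline of Fzd9 was 9.60 ± 4.72 CPM in DMSO and 84.7 ± 3.46 CPM in siCtrl (SD, n = 3), the 2 sets started from different levels. Agent, transfection and treatment time also differ between the sets and cannot be told apart.

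Promoters of the members with the largest changes are shown for their base composition. RefSeq windows from 250 bases before to 50 bases after the start were at hand for Fzd1, Fzd4, Fzd5, Fzd7, Fzd9 and Fzd10. Printed below is the part of each that lies before all annotated transcripts, with the Sp1 letters GGGCGG, on either strand, in capitals.
Fzd1 (GRCm38.p6, chr5:4758217-4758466, minus strand): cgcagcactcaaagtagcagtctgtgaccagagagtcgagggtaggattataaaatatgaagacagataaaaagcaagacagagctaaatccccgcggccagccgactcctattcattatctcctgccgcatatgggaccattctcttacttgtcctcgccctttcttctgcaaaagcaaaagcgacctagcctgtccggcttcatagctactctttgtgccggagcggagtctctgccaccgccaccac
Fzd4 (GRCm38.p6, chr7:89404116-89404354, plus strand): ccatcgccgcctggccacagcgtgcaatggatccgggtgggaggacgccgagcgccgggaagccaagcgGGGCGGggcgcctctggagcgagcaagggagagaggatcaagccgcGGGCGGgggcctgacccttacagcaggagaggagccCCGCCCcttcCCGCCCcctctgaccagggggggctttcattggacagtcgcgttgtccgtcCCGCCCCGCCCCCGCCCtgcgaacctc
Fzd9 (GRCm38.p6, chr5:135251231-135251297, minus strand): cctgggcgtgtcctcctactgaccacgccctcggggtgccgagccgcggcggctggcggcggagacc
Over the whole windows, the Sp1 letters were found 8 times in Fzd4, 10 in Fzd5, 7 in Fzd7, 1 each in Fzd9 and Fzd10, and 0 in Fzd1, and 35.7% of all 32851 windows held them. The TCF/LEF letters CTTTGAT and CTTTGAA, in 3.73% and 5.14% of all windows, were in none of the 6, and nor were the SOX letters ACAATGG and ACAATAG, in 3.66% and 2.37%. The absence says only that these letters are not in these windows.

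The other genes of Wnt reception were read from lists, ordered from ligand to feedback. The counts of each list stand beside 18% of all genes called after the knockdown, 17.4% with XAV939 and 36.4% with IWR-1. Whether any list differed from these shares was not tested. Of 9 tested Wnt ligands, 5 were higher and 1 lower after the knockdown, and of 8 in the drug set 2 were higher and 4 lower with XAV939 and 2 higher and 3 lower with IWR-1. Wnt4 rose in all 3 comparisons, by 1.19, 1.31 and 1.29 on the log2 scale, as did Wnt10b by 0.75, 0.89 and 0.71. Wnt5b also rose after the knockdown (1.06). Wnt10a was lower in each comparison (-1.77, -1.21 and -2.69). With the drugs Wnt9a (-1.91 and -3.18) and Wnt7b (-1.49 and -0.92) were lower, and Wnt11 was lower with XAV939 (-0.79). Wnt7b, which was low in the drug set (average log2 CPM -0.45), rose after the knockdown (0.80, adjusted p = 0.0392).

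Among 9 tested co-receptors and other Wnt receptors, the knockdown raised 1 and lowered 1, XAV939 lowered 3, and IWR-1 raised 1 and lowered 4. The shares of all genes called were 18%, 17.4% and 36.4%. Ryk, an atypical Wnt receptor, was lower in all 3 comparisons (-0.44, -0.35 and -0.41). Ror2, which takes WNT5A, fell with XAV939 (-0.61) and IWR-1 (-0.60), and Tspan12, the partner of FZD4 for Norrin, fell with both as well (-0.91 and -1.09). Lrp5 was lower with IWR-1 (-1.15, adjusted p = 0.00406) and stood at -0.48 and -0.50 after the knockdown and with XAV939 (adjusted p = 0.0681 and 0.188). Lrp6 stood at 0.22, -0.09 and 0.22 and did not pass. Adgra2 rose after the knockdown (0.96) and Reck with IWR-1 (0.51), both partners in WNT7 recognition.

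The turnover genes act on Frizzled proteins at the membrane, where RNF43 and ZNRF3 send them for breakdown and R-spondins with LGR receptors block this. Of 7 tested in the siRNA set, Lgr4 alone was called, beside 18% of all genes, and it rose (0.54, adjusted p = 0.00374). Of 6 in the drug set, Rspo1 rose with XAV939 (1.25) and IWR-1 (1.78), at a low average log2 CPM of -0.69. With IWR-1 Lgr4 rose (0.48) and Rspo2 fell (-1.11). Znrf3 stood at 0.09, -0.06 and 0.15 and did not pass, and Rnf43 was tested in the siRNA set only (0.28, adjusted p = 0.717).

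Among the 6 lists, secreted antagonists had the widest range of log2 fold changes in each comparison. Of 9 tested in each set, 3 were higher after the knockdown, 1 was higher and 4 lower with XAV939, and 2 were higher and 5 lower with IWR-1. Over all genes 18%, 17.4% and 36.4% were called. Frzb, a secreted Frizzled-related decoy abundant in cartilage, rose in each comparison (2.04, 1.53 and 2.40). Sfrp5 rose after the knockdown (2.24) and with IWR-1 (2.97), and Sfrp4 after the knockdown (0.997). Sfrp2, another decoy, fell with XAV939 (-2.54) and IWR-1 (-3.05), as did Sostdc1 (-0.81 and -1.06), Wif1 (-1.33 and -0.94) and Dkk3 (-0.66 and -1.18).

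Downstream of the receptor, 13 Dishevelled genes and partners were tested in each set. Of these, 4 were higher after the knockdown, 1 with XAV939, and 3 higher and 1 lower with IWR-1. Over all genes 18%, 17.4% and 36.4% were called. Dact1, a Dishevelled-binding regulator, rose in each comparison (1.07, 0.93 and 2.17). Prickle1 (0.76) and Daam2 (0.44) of the polarity branch rose after the knockdown, and with IWR-1 Daam2 (0.38) and Nkd1 (0.71) rose and Nkd2 fell (-1.55). Nkd2 was low in the drug set, at an average log2 CPM of -0.94. Of the beta-catenin feedback genes, 9 were tested in the siRNA set and 7 in the drug set. The knockdown raised 1 and lowered 1, and XAV939 lowered 1. IWR-1 raised 1, which was Nkd1 (0.71), also on this list, and lowered 3. Axin2 was lower with XAV939 (-1.40, adjusted p = 0.00288) and IWR-1 (-2.18, adjusted p = 7.74e-05) and stood at -0.23 after the knockdown (adjusted p = 0.585). Lef1 rose (0.58) and Apcdd1 fell (-0.80) after the knockdown, and Apcdd1 (-1.39) and Tcf7 (-0.68) fell with IWR-1.

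**Figure D4:**
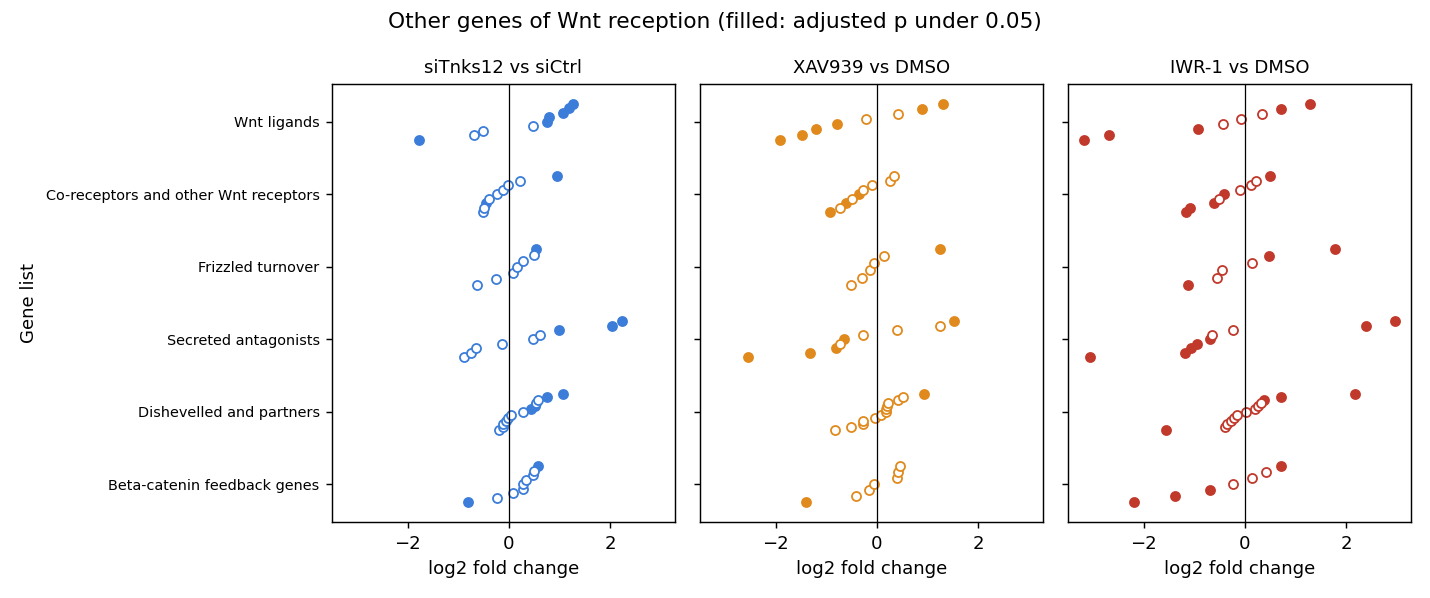
Log2 fold change (horizontal axis) of each tested gene in 6 lists of Wnt reception, by comparison; filled points passed an adjusted p of 0.05. The secreted antagonists reach from -3.05 (Sfrp2) to 2.97 (Sfrp5) with IWR-1. Sfrp5 was near the floor in the drug set, at an average log2 CPM of -1.40.

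To describe which transcripts followed each called receptor, log2 CPM values with the mean of each set removed were correlated over the 15 libraries. Genes that respond to the same treatments share such patterns, and 13323 genes were compared. Closest to Fzd9 were Bdh1 (Pearson's r 0.983), a ketone body enzyme, Slc7a3 (0.983), a cationic amino acid transporter, and Smpd3 (0.982), a sphingomyelinase. Closest to Fzd1 were Pvr (0.987), Gopc (0.981) and Rerg (0.978). Closest to Fzd4 were Map1b (0.955), Rdx (0.954) and Reep3 (0.954), to Fzd6 Ube4b (0.966), Srgap1 (0.954) and Cpox (0.949), and to Fzd5 Ncapd3 (0.972), Gask1b (0.950) and Pdlim5 (0.944). The values were lower for Fzd2, with Pgk1 (0.933) and Chmp7 (0.929), for Fzd7, led by Foxj2 (0.929), Pde4d (0.926) and Col5a1 (0.917), and for Fzd8, led by Polr3d (0.913), Krt17 (0.890) and Phldb1 (0.864).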

How the data were processed

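RNA of 15 chondrocyte libraries was prepared by the study with the TruSeq Stranded mRNA kit and sequenced on an Illumina HiSeq. Per the submitters' processing notes, the authors used Trimmomatic 0.32, TopHat2 2.0.13 and HTSeq 0.6.1p1 with mm10. The annotation and strand setting are not given in the sources used here. The deposited values are raw counts per gene, 24134 Entrez identifiers in each of the 2 tables, of which 24051 matched a symbol. Intervals reflect these samples only, and 3 replicates per group measure the spread between them.

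Counts were tested in R 4.3.3 with edgeR 4.0.16 (filterByExpr, TMM, quasi-likelihood F test, prior count 2), 1 fit per table and 1 over both for interactions, and Benjamini-Hochberg adjustment over all genes tested (13672, 13873 and 14271). A gene was called at an adjusted p under 0.05. The study itself used DESeq2 with stricter limits, tried here as alternatives with DESeq2 1.42.0. CPM uses TMM library sizes, and RPKM also the summed exon length in the GENCODE annotation of GRCm38. Scripts were tested on simulated data.

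Named were all Frizzled genes, Tnks and Tnks2, up to 3 genes each way per list and comparison by adjusted p, Lrp5, Lrp6, Rnf43, Znrf3 and Axin2, and the 3 genes most alike to each called receptor (1 for Fzd2 is not reported here). The members and lists were chosen with earlier results of these data known. No 2 libraries agreed within sampling noise. Libraries of the same replicate number deviated together after group means were removed (r 0.514 to 0.565 in 3 siRNA pairs, 0.153 to 0.704 in 9 drug pairs), all above the limit of 0.1. The labels do not say what a number marks, and the pairing was taken from this check; different numbers reached 0.508. Fits with the number as a block, other scalings, filters, limits, sample subsets and single omitted libraries were run as alternatives.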

Additional observations from a re-analysis of the deposited data

Results flagged for a closer look

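For 8 pairs of a member and a drug, the drug effect differed from the knockdown effect by the interaction test, all given as the drug's log2 fold change minus that of siTnks12. With XAV939 these were Fzd1 (-0.95, adjusted p = 0.000421), Fzd7 (-0.70, adjusted p = 0.0171), Fzd8 (0.62, adjusted p = 0.0364) and Fzd9 (1.44, adjusted p = 0.0132). With IWR-1 they were Fzd1 (-1.11, adjusted p = 3.69e-05), Fzd6 (0.56, adjusted p = 0.0173), Fzd8 (0.82, adjusted p = 0.00444) and Fzd9 (2.40, adjusted p = 0.000186). Both drugs share the DMSO libraries and both differences share the siRNA libraries. The levels of Fzd1, Fzd6, Fzd8 and Fzd9 in DMSO and siCtrl also differed, as given with the results.

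The Fzd8 difference with XAV939 was lost in 8 of 15 fits that left out 1 library: DMSO replicate 1 (adjusted p = 0.0703) or 2 (0.0707), XAV939 replicate 2 (0.0815), IWR-1 replicate 1 (0.0523) or 2 (0.0503), siCtrl replicate 2 (0.0819), and siTnks12 replicate 1 (0.0842) or 3 (0.0676). The Fzd6 difference with IWR-1 was lost without DMSO replicate 2 (adjusted p = 0.0519) or IWR-1 replicate 2 (0.0659). The 6 remaining differences passed in all 15 such fits.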

How the results depend on the processing

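Of 918 log2 fold changes of members under alternative settings, 863 kept their direction and side of the threshold, 27 kept the direction but no longer passed, 16 newly passed and 12 changed sign. With the replicate block 5 members were called after the knockdown and 5 between the drugs, beside 34.6% and 30.7% of all genes. It changed no call of a member other than those given with the results. DESeq2 called 4 members after the knockdown, beside 22.6% of all genes. At the study's limits (fold change above 3, adjusted p under 1e-05) edgeR called 0 members in each of the 6 comparisons. DESeq2 at these limits called 0 after the knockdown, 1 with XAV939, 1 with IWR-1 and 1 for IWR-1 minus siTnks12, in each case Fzd9, which was higher, beside 0.585%, 1.31%, 4.1% and 2.49% of all genes. Without a correction for length, Fzd9 took 19.9% of the family in siCtrl, 30.6% in siTnks12, 17.1% in XAV939 and 27.2% in IWR-1, since its transcript is the shortest of the family. In XAV939 the mean CPM of Fzd1 (55.0) and Fzd2 (43.5) then lay above that of Fzd9 (42.6). In siCtrl the Fzd9 libraries then overlapped those of Fzd2 and Fzd8.

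Leaving out single libraries gave 2 to 3 called members after the knockdown, 2 to 4 with XAV939, 4 to 6 with IWR-1, 1 to 2 between the drugs, 3 to 4 for XAV939 minus siTnks12 and 4 to 5 for IWR-1 minus siTnks12. Over all genes the share called ranged from 4.4 to 20.8% after the knockdown, 9.45 to 17.7% with XAV939 and 26.9 to 40.3% with IWR-1. It ranged from 9.57 to 21.7% between the drugs, 8.6 to 15% for XAV939 minus siTnks12 and 18.9 to 27.3% for IWR-1 minus siTnks12. It moved over 1.5 times without any 1 siCtrl library or siTnks12 replicate 1 (knockdown), DMSO replicate 1 (XAV939), IWR-1 replicates 1 or 2 (between the drugs), and siCtrl replicates 1 or 3 (XAV939 minus siTnks12, 8.6 and 8.73%). For IWR-1 minus siTnks12 the counts include Fzd10 in 13 of 15 fits without a library. It passed the filter there through its highest libraries, so these calls add no support. With no filter 7 members were called with IWR-1, beside 5088 of 18612 genes, and 5 for IWR-1 minus siTnks12, beside 3207 of 19282 genes. Fzd10 was included in both. Tnks ranged from -2.03 to -1.59 and Tnks2 from -1.19 to -0.98. The changes of sign were in values that passed in no setting. With XAV939 Fzd3 was 0.0086 with upper-quartile scaling and ranged from -0.105 to 0.0682 without single libraries, and Fzd4 ranged from -0.22 to 0.75. Among the differences from the knockdown, Fzd5 ranged from -0.0879 to 0.285 (XAV939), and Fzd3 from -0.273 to 0.0131 and Fzd4 from -0.63 to 0.26 (IWR-1). Upper-quartile scaling changed the split over all genes for XAV939 minus siTnks12 from 770 higher of 1922 to 1011 of 1918. Causes of these shifts were not tested. Low counts limited Fzd10, and changes of Fzd3 inside its intervals were not detectable.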
